A study of Mus musculus with 44 samples.

Results

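The wild-type (WT) response to contextual fear conditioning was measured 1 h after training in dorsal hippocampus, by comparing the 6 WT libraries labelled 1 h with the 6 WT libraries labelled 0 h, across all genes. These are 12 of the 36 libraries with gene counts, and the series lists 44 samples, of which 8 from an earlier cohort were not analysed here. The libraries were chosen by their labels alone, so no measured value decided which entered. Each library came from the dorsal hippocampus of 1 mouse, with 3 mice labelled male and 3 labelled female per group. The mice were F2 offspring of a cross between C57BL/6J and 129S2/Sv, were 7 to 8 weeks old at collection, and carried no mutant Kdm5b allele in the WT groups. Mice homozygous for the Kdm5b ΔARID allele, a deletion in a histone H3 lysine 4 demethylase gene, were sampled at the same times and enter here only as a contrast. Mice at 0 h were naive home cage animals. Mice at 1 h had explored a chamber for 148 s and then received 3 foot shocks of 0.7 mA, each 2 s long and 30 s apart. Because the 0 h mice never left the home cage, the effects of shock, context, handling and learning cannot be told apart in this contrast.

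Neuronal firing opens calcium channels and activates kinase cascades that act on transcription factors already bound at a small set of promoters, among them CREB and SRF. The transcripts made first, the immediate early genes, need no new protein synthesis, and many of them encode transcription factors (Fos, Egr and Nr4a families, Npas4) or synaptic proteins (Arc, Homer1). In hippocampus these transcripts mark neurons recruited by a new experience, and most are short-lived. In bulk tissue, fewer responding cells and less RNA per responding cell cannot be told apart.

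Total counts ran from 40274435 to 69151754 in the 0 h libraries and from 58949667 to 71274535 in the 1 h libraries. All levels below are CPM, counts scaled to TMM-normalised library size, given by the lowest, median and highest of 6 libraries. Differences are log2 fold changes followed by their standard error (SE). In 1 of the 12 libraries the sex label and the sex-linked transcripts disagreed. On Xist, which is transcribed from the inactive X chromosome, 51186 counts were found in the library labelled WT 1 h male 1, with 0 counts on the Y-linked genes Ddx3y, Eif2s3y, Uty and Kdm5d. The other 1 h libraries labelled male held 38 and 40 counts on Xist and 10363 and 11028 on the Y-linked genes. Among all 36 libraries used here 1 other disagreed, in the opposite direction: Xist had 36 counts and the same Y-linked genes together 10239 in mutant 3 h female 2, as labelled. The early gene Fos stood at 43.9 CPM in it, against 6.42 to 11.6 CPM in the other 5 mutant libraries at 3 h, while the library labelled WT 1 h male 1 held 11.7 CPM against 19.2 to 34.4 CPM in the other 5 of its group. Kdm5b stood at 79.6 CPM in the library labelled WT 1 h male 1, below every other WT library, and at 93.6 CPM in the library labelled mutant 3 h female 2, above the other 5 of its group (77.5 to 86.2 CPM). Egr1 stood at 106 CPM in the former against 186 to 279 CPM in the other 5 of its group, and at 293 CPM in the latter against 92.7 to 178 CPM. Arc stood at 113 CPM against 149 to 372 CPM and at 332 CPM against 73.1 to 125 CPM in the same order. Both libraries thus went against their labels on sex and stood outside their groups on Fos, Kdm5b, Egr1 and Arc. These 4 genes were looked up after the disagreement was seen. Whether the genotype and time labels of the library labelled WT 1 h male 1 hold was not tested. That library stayed under its label, and for many genes and lists the value without it stands beside the main one. Markers of dentate granule cells and of CA1, CA2 and CA3 pyramidal cells were detected in all 12 libraries, and 0 of the 17 tested markers of these cell types had an unadjusted p under 0.05. The summed level of 8 choroid plexus markers, a tissue that lies against the hippocampus, ran from 49.0 to 5814 CPM at 0 h and from 110 to 4562 CPM at 1 h. All 8 were lower at 1 h in the fit (median log2 fold change −0.63, and −0.39 without the library labelled WT 1 h male 1), 0 with an unadjusted p under 0.05, and that library held the lowest sum at 1 h. The 4 tested blood markers went the other way, all 4 higher at 1 h (median log2 fold change 0.44, and 0.62 without that library), 0 with an unadjusted p under 0.05. Their summed level ran from 9.23 to 38.7 CPM at 0 h (median 14.6) and from 10.8 to 73.3 CPM at 1 h (median 23.4), with 1 trained mouse above all naive mice. The part of choroid plexus and blood in the results below was not tested.

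In WT mice 1 h after training, the smallest p values belonged to Fosb and Npas4, known to be induced by neuronal activity, whose mean levels were 2.57-fold and 2.15-fold those of naive mice. None of the 17319 genes tested passed an adjusted p of 0.05 in edgeR's quasi-likelihood test with sex as a covariate (0 genes, 0.0%), and the smallest adjusted p was 0.282, shared by Fosb and Npas4. DESeq2 with the same covariate called 8 genes (0.0462% of 17320). These were Fosb, Npas4, Atf3, Gadd45b, Fosl2, Arrdc4, Lars2 and the ribosomal RNA precursor Rn45s, the first 6 higher at 1 h and the other 2 lower. In simulated counts with 200 genes changed, DESeq2 also called 34 of 17113 unchanged genes, where edgeR called 9 of 16952. The DESeq2 calls and adjusted p values given here carry that limit. Without the library labelled WT 1 h male 1, edgeR called 3 of 17439 genes (0.0172%), namely Fosb, Nr4a1 and Dnajb5, all higher, and DESeq2 called 73. At an unadjusted p under 0.05, 506 genes were higher (2.92%) and 422 lower (2.44%), together 5.36% of genes tested. The 6 libraries at 1 h lay wholly above the 6 at 0 h for 29 genes (0.167%) and wholly below for 14 genes (0.0808%). Across all genes the median log2 fold change was −0.0046, and 9 in 10 genes lay between −0.33 and 0.28. In the plot of all genes, Fosb, Npas4, Atf3 and Gadd45b lie highest, and most other early genes lie within the body of the plot, to the right of 0.

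**Figure D1:**
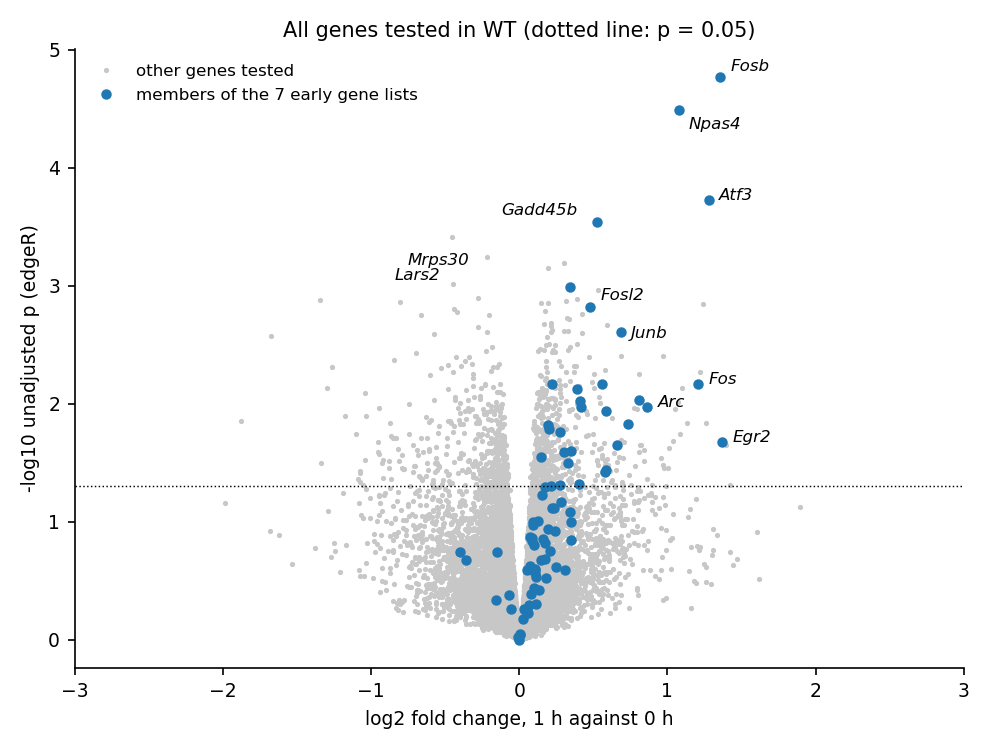
Each point is 1 of the 17319 genes tested in WT, with the log2 fold change of 1 h against 0 h on the x axis and the negative log10 of the unadjusted edgeR p on the y axis; 1 gene lies outside the plotted range. Blue points are the 82 tested members of the 7 early gene lists, of which 75 lie to the right of 0, and Fosb, Npas4, Atf3 and Gadd45b hold the highest places among them.

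Early genes were described as 7 lists of known activity-induced genes, with 82 distinct members tested. Lists and members were chosen with earlier results of these data known, so the shares below are descriptive and not independent support. Of the 82 early genes, 75 were higher at 1 h (91.5%, against 47.9% of all genes tested) and 31 were higher with an unadjusted p under 0.05 (37.8%, against 2.92% of all genes), while 0 were lower with such a p. Their median log2 fold change was 0.19, beside −0.0046 for all genes. Without the library labelled WT 1 h male 1, 44 were higher with an unadjusted p under 0.05, where the share of all genes was 4.17%, and the median was 0.24. DESeq2 called 5 of the 82 with all libraries and 21 without that library, where 5 more had no adjusted p. The groups did not overlap for 2 of the 82, Fosb and Npas4.

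The AP-1 genes encode subunits of a dimeric transcription factor built from Fos and Jun family proteins. Of 12 listed, 9 were tested (Fosl1, Batf and Batf2 were too low), 6 were higher with an unadjusted p under 0.05 and 0 were lower with such a p, with a median log2 fold change of 0.48. Fosb, which encodes a Fos family subunit and lies at chr7:19302696-19310118, ranged from 6.29 to 12.4 CPM at 0 h (median 8.61). At 1 h it ranged from 15.9 to 30.3 CPM (median 23.7). All 6 trained mice were above all 6 naive mice, and the lowest was the library labelled male 1. The log2 fold change of Fosb was 1.35 (SE 0.20), with an adjusted p of 0.282 in edgeR and 2.02e-10 in DESeq2, and it was 1.46 (SE 0.18, edgeR adjusted p 0.0408) without that library. Fos itself ranged from 5.20 to 21.5 CPM at 0 h (median 9.84) and from 11.7 to 34.4 CPM at 1 h (median 28.6). The groups overlapped, because naive male 1 held 21.5 CPM, above trained female 2 at 19.2 CPM and the trained library labelled male 1 at 11.7 CPM. Fos had a log2 fold change of 1.21 (SE 0.36) with all libraries and 1.39 (SE 0.30) without the latter.

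Atf3, a stress and activity-induced partner of AP-1 proteins, was near the lower end of detection, with 0.411 to 1.06 CPM at 0 h (median 0.647). At 1 h it held 0.834 to 2.07 CPM (median 1.73), and 5 of 6 trained mice were above all naive mice. Its log2 fold change was 1.28 (SE 0.25), with an adjusted p of 0.922 in edgeR and 0.00811 in DESeq2, and it was 1.38 (SE 0.24) without the library labelled male 1. Fosl2 ranged from 45.8 to 64.2 CPM at 0 h and from 55.7 to 90.3 CPM at 1 h, with a log2 fold change of 0.48 (SE 0.12), or 0.54 (SE 0.11) without the library labelled male 1, and 4 of 6 trained mice above all naive mice. Junb, which encodes a Jun family subunit, ranged from 46.8 to 67.4 CPM at 0 h and from 59.1 to 128 CPM at 1 h, with a difference of 0.69 on the log2 scale (SE 0.17), and of 0.80 (SE 0.12, edgeR adjusted p 0.0795) without the library labelled male 1. Only that library fell inside the naive range of Junb. Jdp2, which encodes a repressor that dimerises with AP-1 proteins, had a log2 fold change of 0.28 (SE 0.10). The other Jun genes gave values near 0, with log2 fold changes of −0.06 (SE 0.09) for Jun and −0.07 (SE 0.08) for Jund, so within AP-1 the higher values lay in Fos family genes, Junb, Atf3 and Jdp2.

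**Figure D2:**
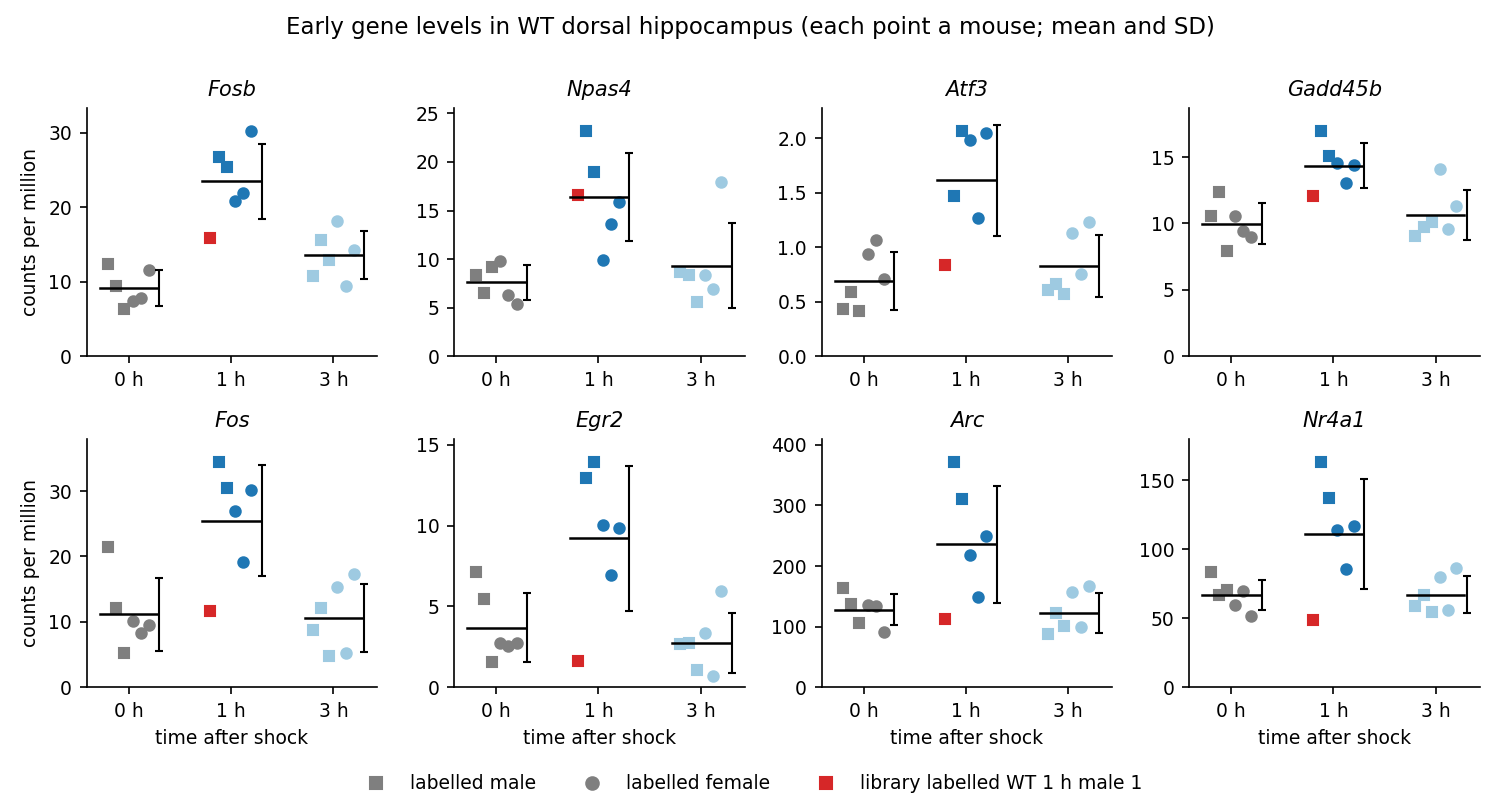
Levels in CPM of 8 early genes in WT libraries at 0 h, 1 h and 3 h after shock; each point is 1 mouse (squares labelled male, circles labelled female), the bar is the mean and the error bar the SD over 6 mice, and red marks the library labelled WT 1 h male 1. For Fosb and Npas4 every 1 h point is above every 0 h point, while for Fos, Egr2, Arc and Nr4a1 the red point lies at 11.7, 1.60, 113 and 49.0 CPM, within or below the 0 h points.

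The promoters of 4 of these genes are shown because they carry the recognition letters of the factors named above. Sequences are from RefSeq (GRCm38.p6), which held windows for 57 of the 71 genes named by rule, and each run is the 250 bases before 1 annotated transcript start, 5′ to 3′ on the gene's strand. For Fosb and Npas4 that start lies inside the gene's full annotated span, so other transcripts of these genes may start elsewhere. Capitals mark matches, on either strand, to TGACG (the core of a cyclic AMP response element, CRE, which the full CRE TGACGTCA contains), TGANTCA (AP-1 site), GCGNGGGCG (Egr site), CACGTG (E-box) or the CArG box bound by SRF.
Fosb, chr7:19310046-19310295, minus strand: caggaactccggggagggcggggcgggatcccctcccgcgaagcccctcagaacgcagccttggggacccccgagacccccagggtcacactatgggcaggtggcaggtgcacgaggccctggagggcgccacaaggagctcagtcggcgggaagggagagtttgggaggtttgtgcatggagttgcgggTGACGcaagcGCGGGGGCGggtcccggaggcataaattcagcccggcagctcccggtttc
Npas4, chr19:4989972-4990221, minus strand: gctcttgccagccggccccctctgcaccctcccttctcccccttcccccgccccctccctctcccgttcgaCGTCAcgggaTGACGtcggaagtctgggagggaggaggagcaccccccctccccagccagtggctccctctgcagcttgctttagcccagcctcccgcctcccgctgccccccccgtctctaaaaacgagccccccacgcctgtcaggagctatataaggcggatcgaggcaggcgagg
Nr4a1, chr15:101266596-101266845, plus strand: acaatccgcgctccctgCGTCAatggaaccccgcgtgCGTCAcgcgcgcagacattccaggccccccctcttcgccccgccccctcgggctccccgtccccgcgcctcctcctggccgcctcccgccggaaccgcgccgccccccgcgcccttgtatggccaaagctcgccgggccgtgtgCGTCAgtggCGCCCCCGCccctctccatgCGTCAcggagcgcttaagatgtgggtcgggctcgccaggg
Dusp5, chr19:53528895-53529144, plus strand: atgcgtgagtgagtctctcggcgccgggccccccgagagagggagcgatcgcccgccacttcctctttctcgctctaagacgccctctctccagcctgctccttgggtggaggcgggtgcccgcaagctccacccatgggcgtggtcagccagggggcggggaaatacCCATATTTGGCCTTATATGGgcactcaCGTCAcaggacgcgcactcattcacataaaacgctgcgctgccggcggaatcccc
The Fosb window held 1 TGACG core and 1 Egr match, the Npas4 window 2 TGACG cores 5 bases apart, and the Nr4a1 window 4 TGACG cores and 1 Egr match. The Dusp5 window held 2 CArG boxes side by side and 1 TGACG core. Among the 34 RefSeq windows of the early genes named here (several genes have more than 1 start), TGACG was found in 20, against 17.8% of all 32851 windows, and an Egr match in 9, against 4.70% of all windows. The 34 windows come from 25 genes, and those with TGACG from 17 of them. The CArG box was found in 6 of the 34 (1.47% of all windows), but these belong to 3 genes, Dusp5, Srf and Egr2, and several Egr2 windows overlap and count the same site again. The full CRE was found in 3 (1.55%), the E-box in 5 (6.02%) and the AP-1 site in 0 (6.75%). These are letter matches in a fixed window, with no measurement of binding.

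The Egr genes encode zinc finger transcription factors, and Nab1 and Nab2 encode corepressors that bind them. All 6 genes were tested, 5 were higher with an unadjusted p under 0.05, and the median log2 fold change was 0.46. Egr1 ranged from 128 to 205 CPM at 0 h (median 132) and from 106 to 279 CPM at 1 h (median 259). In 4 of 6 trained mice Egr1 was above all naive mice, and in the library labelled male 1 it was below all of them. Its log2 fold change was 0.58 (SE 0.24) with all libraries and 0.77 (SE 0.12, adjusted p 0.0795 in edgeR and 4.61e-08 in DESeq2) without that library. Egr2 ranged from 1.56 to 7.15 CPM at 0 h and from 1.60 to 13.9 CPM at 1 h, and the log2 fold change of 1.37 had an SE of 0.50 (1.64, SE 0.30, without the library labelled male 1). The wide error of Egr2 came with 2 naive males at 7.15 and 5.46 CPM and 1 trained library at 1.60 CPM.

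Egr4 was at 28.8 to 44.9 CPM at 0 h and 26.4 to 78.7 CPM at 1 h, which gave 0.81 on the log2 scale (SE 0.25) and 0.98 (SE 0.14) without the library labelled male 1. Egr3 showed a smaller and tighter difference, from 44.7 to 61.7 CPM at 0 h and from 58.6 to 77.5 CPM at 1 h (log2 fold change 0.34, SE 0.08). For Egr3 the library labelled male 1 held 61.6 CPM, the second lowest level of the trained mice and just inside the range of the naive mice. Nab2 had a log2 fold change of 0.22 (SE 0.07), with 4 of 6 trained mice above all naive mice.

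The Nr4a genes encode orphan nuclear receptors. All 3 were higher at 1 h, 2 with an unadjusted p under 0.05, with a median log2 fold change of 0.41. Nr4a1 ranged from 51.4 to 83.8 CPM at 0 h (median 68.1) and from 49.0 to 163 CPM at 1 h (median 115). Trained mice lay above all naive mice in 5 of 6 cases, and the library labelled male 1 lay below all of them. For Nr4a1 the log2 fold change was 0.73 (SE 0.25, adjusted p 0.922 in edgeR) with all libraries and 0.91 (SE 0.11, adjusted p 0.0408) without it. Nr4a2 ranged from 42.2 to 75.9 CPM at 0 h and from 57.7 to 88.8 CPM at 1 h, with a log2 fold change of 0.41 (SE 0.13). Nr4a3 had a log2 fold change of 0.25 (SE 0.20), or 0.39 (SE 0.13) without the library labelled male 1, and in the library labelled male 1 its 27.2 CPM was below all naive mice.

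Npas4 encodes a neuron-restricted transcription factor induced by calcium influx. It lies on chromosome 19 and ranged from 5.37 to 9.83 CPM at 0 h (median 7.46) and from 9.89 to 23.2 CPM at 1 h (median 16.2). The groups did not overlap, although the lowest trained mouse, female 1 at 9.89 CPM, exceeded the highest naive mouse, female 1 at 9.83 CPM, by a margin far below the spread within either group. The library labelled male 1 held 16.6 CPM of Npas4, above the median of the trained mice. Npas4 had a log2 fold change of 1.08 (SE 0.17), with an adjusted p of 0.282 in edgeR and 3.85e-07 in DESeq2, and 1.11 (SE 0.18, edgeR adjusted p 0.0873) without that library. When naive female 1 was left out, edgeR called 1 gene, Npas4, with an adjusted p of 0.0154.

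Of the 19 other activity-induced transcription factor genes, Npas4 included, 17 were higher and 5 were higher with an unadjusted p under 0.05 (median log2 fold change 0.15). The count was 2 without naive female 3 or trained female 3, and 8 without trained female 2 or the library labelled male 1. Besides Npas4 these were Tiparp (0.39, SE 0.12), Maff (0.66, SE 0.26), Srf (0.15, SE 0.06) and Nfil3 (0.40, SE 0.18). Srf, which encodes the factor that binds the CArG box, ranged only from 76.2 to 85.9 CPM at 0 h and was at 86.0 to 98.8 CPM in 5 of 6 trained mice. The library labelled male 1 held 74.2 CPM of Srf, below all naive mice, and the log2 fold change was 0.21 (SE 0.05) without it. Ier2 (0.11, SE 0.09) and Myc (0.07, SE 0.10) gave differences no larger than about their error.

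Effector genes act at synapses, in DNA repair and demethylation, or in secretion. All 25 tested members had a positive log2 fold change, 8 with an unadjusted p under 0.05, and the median was 0.16. The count was 4 without naive male 3 or trained male 2, 5 without naive female 1 or naive female 3, and 12 without the library labelled male 1. Gadd45b, which takes part in activity-induced DNA demethylation, had the smallest p of the list and ranged from 7.95 to 12.3 CPM at 0 h (median 9.999) and from 12.04 to 16.99 CPM at 1 h (median 14.5). Only the library labelled male 1, at 12.04 CPM, fell within the naive range. Gadd45b differed by a log2 fold change of 0.52 (SE 0.11), with an adjusted p of 0.922 in edgeR and 0.00975 in DESeq2, and by 0.58 (SE 0.10) without that library. Gadd45g had a log2 fold change of 0.30 (SE 0.12).

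Arc, which encodes a postsynaptic protein that controls AMPA receptor trafficking, ranged from 91.7 to 164 CPM at 0 h (median 135) and from 113 to 372 CPM at 1 h (median 234). The trained mice spanned a wide range, with 4 of 6 above all naive mice and 2 (113 and 149 CPM) inside the naive range. For Arc the log2 fold change was 0.86 (SE 0.28), and 1.02 (SE 0.19, adjusted p 0.207 in edgeR and 0.000536 in DESeq2) without the library labelled male 1. Homer1, a postsynaptic scaffold gene whose short form is activity-induced, had a log2 fold change of 0.19 (SE 0.07). The counts sum over isoforms, so the short form was not measured apart.

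The other effectors with an unadjusted p under 0.05 were Amigo3 (0.42, SE 0.14), Trib1 (0.35, SE 0.14), Arl5b (0.33, SE 0.14) and Arl4d (0.58, SE 0.25). Amigo3 overlaps Rnf123 in the annotation, and reads of overlapping genes may be shared. Several well-known activity genes in this list gave small differences at 1 h. Bdnf, which encodes a neurotrophin, ranged from 49.7 to 59.7 CPM at 0 h and from 47.2 to 59.9 CPM at 1 h, which gave a log2 difference of 0.03 (SE 0.06). Rgs2 was at 0.01 (SE 0.06), Ptgs2 at 0.14 (SE 0.15) and Nptx2 at 0.16 (SE 0.08).

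Small GTPase genes of this class (8 tested, 7 higher, median log2 fold change 0.19) included 2 with an unadjusted p under 0.05. Gem, which encodes an inhibitor of voltage-gated calcium channels, ranged from 2.08 to 3.76 CPM at 0 h and from 2.93 to 5.38 CPM at 1 h (log2 fold change 0.59, SE 0.20). Rasl11b had a log2 fold change of 0.20 (SE 0.07). The genes for feedback inhibitors of MAP kinase signalling gave 11 of 12 higher, 3 with an unadjusted p under 0.05 (Dusp5, Dusp4 and Spry1) and a median of 0.12. That count was 7, with a median of 0.20, without the library labelled male 1, and 1 without naive female 1, naive male 3, or trained female 1, female 3 or male 2. Dusp5, a phosphatase of ERK, had a median of 13.6 CPM and a highest level of 14.3 CPM at 0 h. At 1 h it was at 17.7 to 26.1 CPM in 5 mice and at 10.8 CPM in the library labelled male 1. Its log2 fold change was 0.56 (SE 0.17), and 0.69 (SE 0.11, edgeR adjusted p 0.0795) without that library. Dusp6 showed the same arrangement, with 49.6 CPM in that library, below all naive mice, and a log2 fold change of 0.24 (SE 0.12) that became 0.35 without it.

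The trained mice differed widely in how many early genes left the naive range. Of the 82 early genes tested, 51 and 50 were above all naive mice in males 2 and 3, 42 and 44 in females 1 and 3, 15 in female 2 and 13 in the library labelled male 1. As shares of the early genes these were 51.2% to 62.2% in the first 4 mice, where 12.5% to 16.0% of all genes tested were above all naive mice. In female 2 the share was 18.3% beside 10.9% of all genes, and in the library labelled male 1 it was 15.9% beside 14.6%, so the early genes of that library were above the naive range about as often as any genes. The same library held 11 early genes below all naive mice (13.4%, beside 12.3% of all genes), where the other trained mice held 1 to 4 (1.22% to 4.88%, beside 9.98% to 15.2% of all genes). Fosb and Npas4 were above all naive mice in each of these 6 libraries. List members named in the text with an unadjusted p above 0.05, such as Jun, Jund, Nr4a3, Ier2, Myc, Bdnf, Rgs2, Ptgs2, Nptx2 and Dusp6, were chosen after their values were seen. At 3 h, 5 to 27 of the 82 genes were above all naive mice (6.10% to 32.9%), beside 10.9% to 15.6% of all genes.

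**Figure D3:**
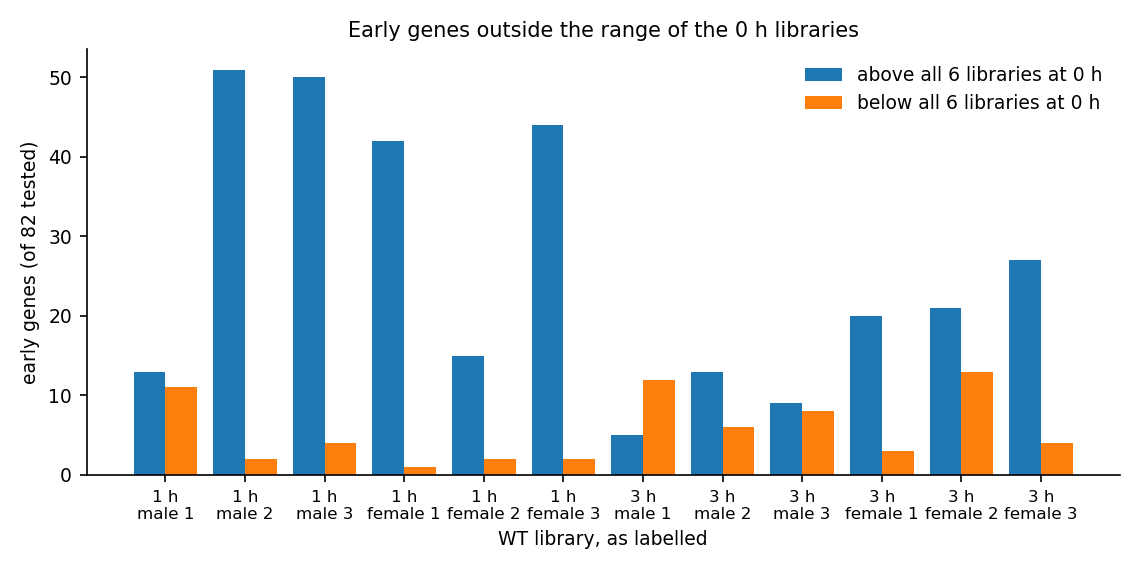
Bars give, for each WT library at 1 h and 3 h (x axis, as labelled), the number of the 82 tested early genes whose CPM was above all 6 (blue) or below all 6 (orange) naive libraries. Males 2 and 3 and females 1 and 3 at 1 h stand between 42 and 51 above, against 13 in male 1 and 15 in female 2.

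Histone lysine demethylase genes were described because the series concerns Kdm5b. Of 18 tested, 15 were higher, 3 with an unadjusted p under 0.05, with a median log2 fold change of 0.06. Among all genes tested 47.9% were higher, and 2.92% were higher with such a p. The count was 7 without naive male 2 and 5 without the library labelled male 1. Kdm6b, which encodes a demethylase of histone H3 lysine 27, ranged from 44.1 to 53.8 CPM at 0 h and from 51.2 to 69.9 CPM at 1 h. The library labelled male 1, at 51.2 CPM, was the only trained one inside the naive range, and the log2 fold change was 0.32 (SE 0.08), or 0.37 (SE 0.07) without it. Kdm7a had a log2 fold change of 0.28 (SE 0.09) and Kdm5c, an X-linked gene, of 0.11 (SE 0.04), or 0.09 (SE 0.04) without the library whose sex label is in doubt. Kdm5b itself ranged from 81.5 to 88.8 CPM at 0 h and from 79.6 to 97.1 CPM at 1 h, which gave a log2 difference of 0.06 (SE 0.05), or 0.10 (SE 0.04) without the library labelled male 1.

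**Figure D4:**
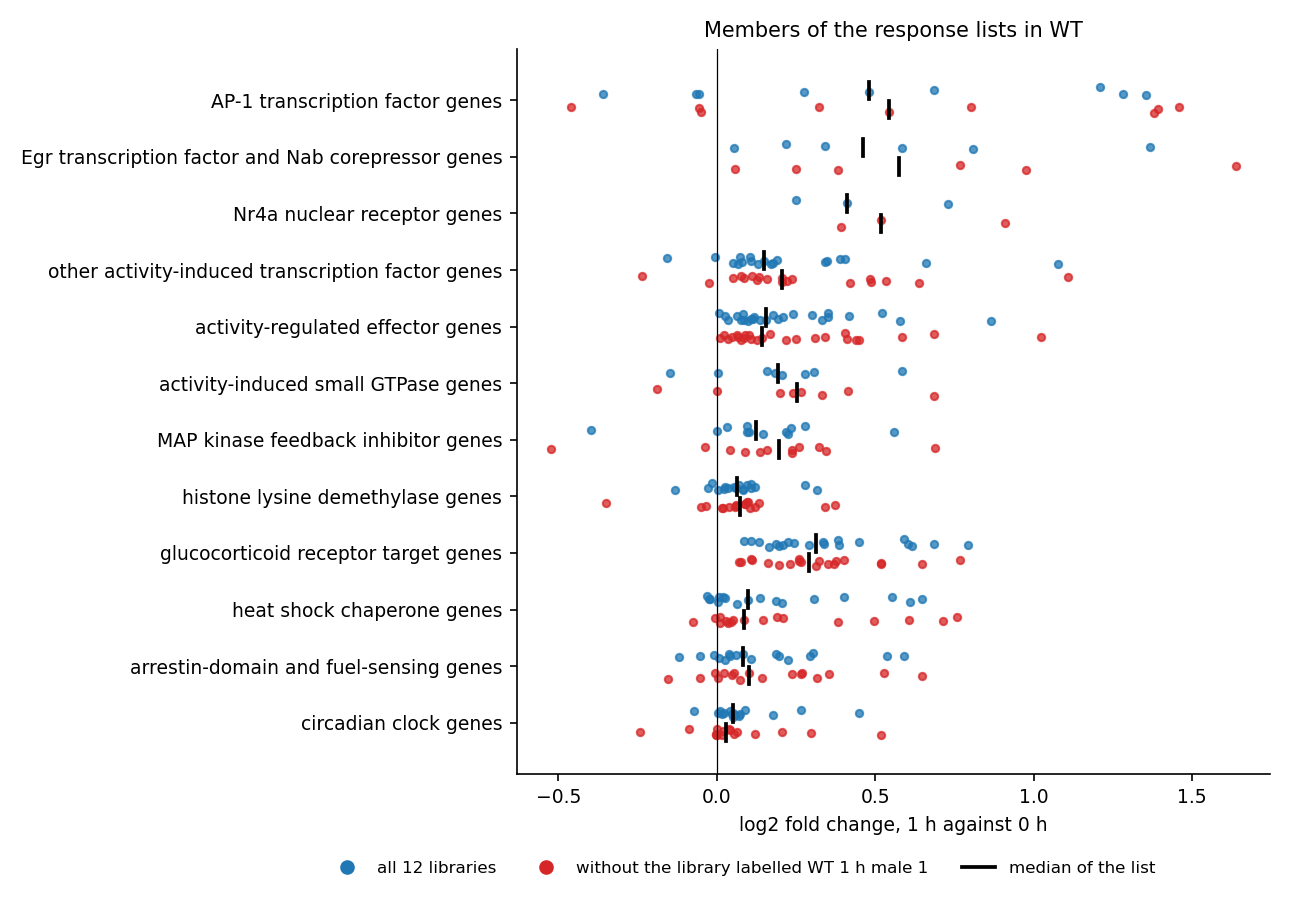
Each point is the log2 fold change (x axis) of 1 member of the list named on the left, in blue from all 12 libraries and in red without the library labelled WT 1 h male 1; black ticks are list medians. Medians run from 0.05 for circadian clock genes to 0.48 for AP-1 genes with all libraries, and the AP-1, Egr and Nr4a medians are 0.54, 0.58 and 0.52 without that library.

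Glucocorticoid receptor target genes respond to the corticosterone released by stress. All 20 were higher at 1 h, 3 with an unadjusted p under 0.05 (Pdk4, Errfi1 and Per1), and the median log2 fold change was 0.31. Of all genes tested, 47.9% were higher and 2.92% were higher with an unadjusted p under 0.05. Pdk4, a kinase that restrains pyruvate oxidation, ranged from 9.91 to 14.6 CPM at 0 h and from 12.01 to 21.7 CPM at 1 h (log2 fold change 0.59, SE 0.15). The count in this list depended most on 1 naive mouse, and it was 5 without trained female 2. Naive female 2 held the highest 0 h level in 18 of the 20 genes, among them Sgk1, a kinase gene, at 232 CPM against at most 135 CPM in the other naive mice. In the same mouse Tsc22d3, which encodes an anti-inflammatory leucine zipper protein, stood at 93.1 CPM against at most 65.0 CPM. Plin4, a lipid droplet protein gene, stood at 24.3 CPM there against at most 5.66 CPM.

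When naive female 2 was left out, 16 of the 20 targets were higher with an unadjusted p under 0.05, where the share of all genes was 4.13%, and the median was 0.48. Sgk1 then had a log2 fold change of 1.05 (SE 0.29) in place of 0.68 (SE 0.37), and Tsc22d3 of 0.60 (SE 0.16) in place of 0.38 (SE 0.22). Nfkbia moved from 0.29 (SE 0.24) to 0.56 (SE 0.14). None of the 20 passed the adjusted threshold in that fit, the smallest adjusted p being 0.488 in edgeR. Sgk1, Tsc22d3, Plin4 and Nfkbia were chosen after their values were seen, and naive female 2 was singled out from all single omissions in the same way. Leaving out the mouse with the highest naive levels raises the differences of those genes by itself. The larger count therefore cannot serve as support for a response. Without any other single library the count was 3 or 5.

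Heat shock chaperone genes were higher in 14 of 17 cases, 5 with an unadjusted p under 0.05, with a median of 0.10, beside 47.9% and 2.92% of all genes tested. The count was 2 without trained male 2 or male 3 and 3 without naive female 1, male 2 or male 3, and the median ran from 0.05 to 0.14 as single libraries were left out. Dnajb5, which encodes a co-chaperone of Hsp70, ranged from 126 to 161 CPM at 0 h. At 1 h it was at 164 to 198 CPM in 5 mice and at 139 CPM in the library labelled male 1, which alone overlapped the naive mice. Dnajb5 had a log2 fold change of 0.31 (SE 0.08), and 0.38 (SE 0.05, edgeR adjusted p 0.0495) without that library. Dnajb1 gave 0.40 (SE 0.12) and Chordc1 0.14 (SE 0.06). Hspa1a (0.61, SE 0.26) and Hspa1b (0.65, SE 0.29), which encode inducible Hsp70 and are near-identical copies whose reads may be shared, were above all naive mice in males 2 and 3 and female 1, at 21.0, 17.5 and 14.7 CPM for Hspa1a against at most 12.04 CPM in naive mice.

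Of 17 genes for arrestin-domain proteins and fuel sensing, 14 were higher, 6 with an unadjusted p under 0.05, with a median of 0.08, beside 47.9% and 2.92% of all genes tested. Arrdc4, whose product restrains glucose uptake, ranged from 11.98 to 14.98 CPM at 0 h (median 13.2) and from 14.8 to 17.5 CPM at 1 h (median 16.4). Only trained female 3, at 14.8 CPM, fell below the highest naive mouse. Arrdc4 had a log2 fold change of 0.30 (SE 0.07), with an adjusted p of 0.922 in edgeR and 0.0495 in DESeq2. Unlike for Fos or Egr1, the library labelled male 1 lay among the other trained mice, at 16.1 CPM. Its paralogue Txnip, which encodes a thioredoxin-interacting protein and overlaps Gm15441, gave 0.54 (SE 0.17), with groups that overlapped because naive female 2 stood at 23.5 CPM. Prkab2, a subunit of AMP-activated kinase, gave 0.22 (SE 0.06), Irs2 0.29 (SE 0.12) and Arrdc3 0.20 (SE 0.08). The remaining member with such a p was Pdk4, which is also counted among the glucocorticoid receptor targets above, as is the clock gene Per1. Of 16 circadian clock genes 15 were higher, 2 with an unadjusted p under 0.05, Per1 (0.45, SE 0.15) and Per2 (0.27, SE 0.12), with a median of 0.05 that ran from 0.03 to 0.09 as single libraries were left out. These counts too stand beside 47.9% and 2.92% of all genes tested. The number with an unadjusted p under 0.05 was 1 without naive female 1, naive female 3, trained female 1 or trained female 3.

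**Figure D5:**
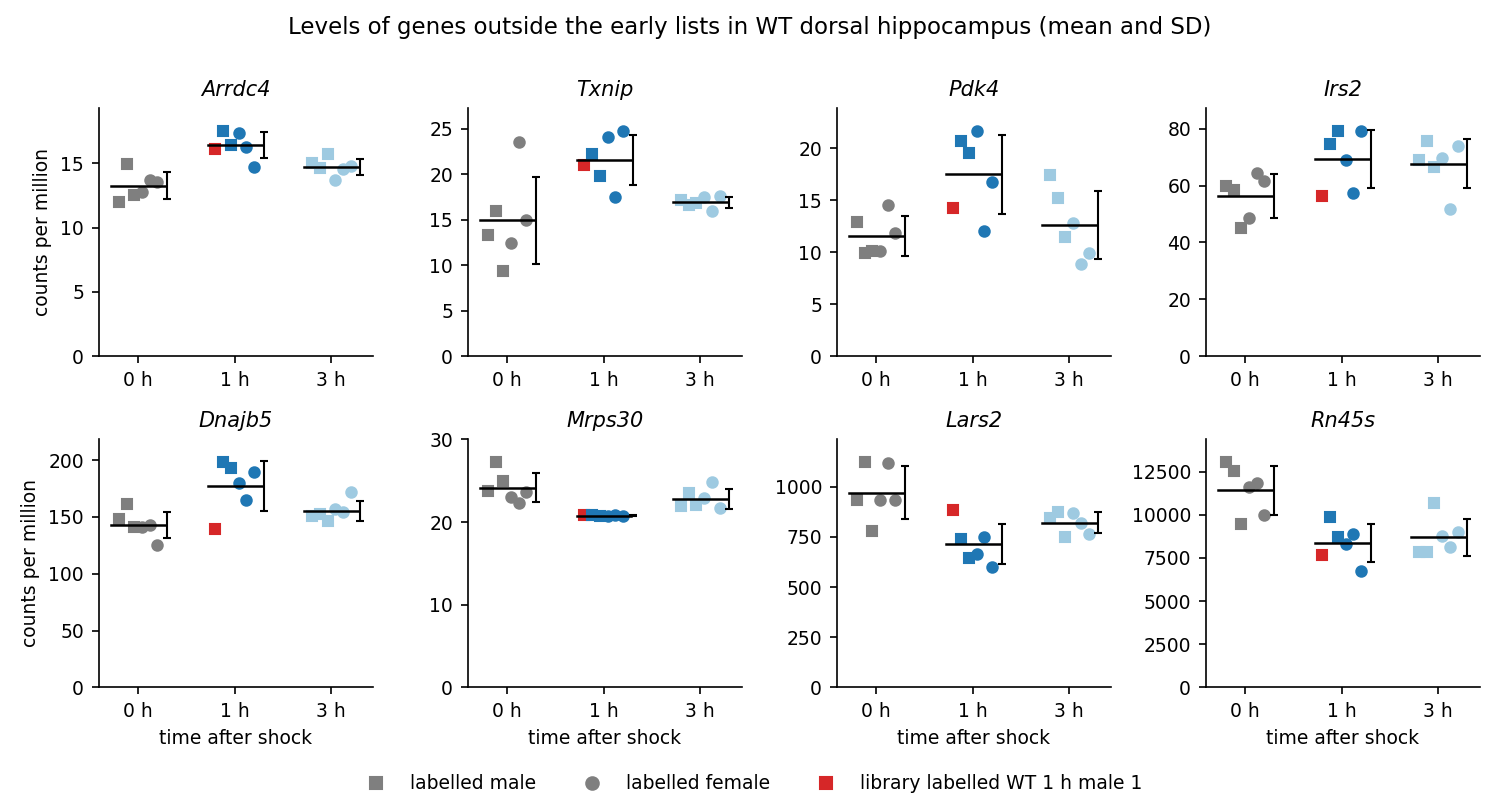
Levels in CPM of 8 genes outside the early lists in WT libraries at 0 h, 1 h and 3 h; points are mice (squares labelled male, circles labelled female), the bar is the mean, the error bar the SD over 6 mice, and red marks the library labelled WT 1 h male 1. The 6 libraries at 1 h lie within 20.7 to 20.9 CPM for Mrps30, below the 22.3 CPM of the lowest naive mouse, and 5 of 6 lie below all naive mice for Lars2 and Rn45s.

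Among genes in no response list, few differences were both large and clear of overlap. Across all genes tested, the groups did not overlap for 0.167% that were higher and 0.0808% that were lower. Sbk1, which encodes a brain serine/threonine kinase, ranged from 84.1 to 106 CPM at 0 h and from 111 to 167 CPM at 1 h, with no overlap and a log2 fold change of 0.39 (SE 0.09). Etv3, an ETS family repressor gene, ranged from 30.9 to 34.9 CPM at 0 h and from 35.5 to 38.9 CPM at 1 h (0.17, SE 0.04), and Srsf7, a splicing factor gene, from 101 to 107 and from 111 to 120 CPM (0.15, SE 0.04). These differences were small but exceeded the spread of both groups. Rag1, known for recombination in lymphocytes, had 6 to 16 counts per library at 0 h and 22 to 36 at 1 h, also without overlap (1.24, SE 0.31). Low counts were mostly even numbers, 71.4% of values from 1 to 20 and 59.4% from 21 to 100 in the 12 libraries, so a count may not stand for 1 sequenced fragment, and how this bears on the tests of low genes was not tested. Lrmp (0.53, SE 0.13) and Osbpl6 (0.20, SE 0.04), which overlap Casc1 and Gm52557, were higher in 5 of 6 trained mice than in any naive mouse.

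The lower genes of smallest p were mostly small in size or low in level. Mrps30, a mitochondrial ribosomal protein gene, ranged from 22.3 to 27.3 CPM at 0 h and from 20.7 to 20.9 CPM at 1 h (−0.22, SE 0.05), and its SD among trained mice was 0.0757 CPM against 1.77 CPM among naive mice. Stx1a, which encodes a synaptic vesicle fusion protein, gave −0.20 (SE 0.05), the teneurin gene Tenm4 −0.28 (SE 0.07) and the tubulin gene Tuba1b −0.22 (SE 0.06). The larger negative values belonged to low transcripts, such as the receptor gene Gpr139 with 16 to 39 counts per library at 0 h and 6 to 18 at 1 h (−1.35, SE 0.33). None of these lower genes passed the adjusted threshold in edgeR or DESeq2 in the 12 libraries with sex as a covariate. Mrps30 had a DESeq2 adjusted p of 0.0346 in the fit of all 18 WT libraries with a prior on fold changes, and of 0.0469 without the library labelled male 1.

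Rn45s and Lars2, listed together here as ribosomal RNA-like transcripts, were lower at 1 h. Their log2 CPM had a correlation of 0.49 over the 36 libraries, and whether they share a response was not tested. Rn45s is the ribosomal RNA precursor, and its identifier carries no name in the RefSeq table but is listed under this symbol in the study's supplementary tables. It held 9491 to 13060 CPM at 0 h and 6731 to 9868 CPM at 1 h, with 5 of 6 trained mice below all naive mice. Its log2 fold change was −0.45 (SE 0.10, adjusted p 0.922 in edgeR and 0.00811 in DESeq2). Lars2, the mitochondrial leucyl-tRNA synthetase gene, ranged from 779 to 1124 CPM at 0 h and from 601 to 883 CPM at 1 h (−0.45, SE 0.11, DESeq2 adjusted p 0.041). The library labelled male 1 held the highest trained level of Lars2 and the second lowest of Rn45s. Libraries were made from poly-A selected RNA.

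The response was compared between sexes and genotypes by testing the difference itself. The sex difference of the WT 1 h response, with sex as labelled, had 0 of 17974 genes with an adjusted p under 0.05 in edgeR, with 811 at an unadjusted p under 0.05 and 2 called by DESeq2. Fosb had log2 fold changes of 1.45 in females and 1.27 in males, and Npas4 of 0.87 and 1.29. Of the 82 early genes, 69 were higher in females and 71 in males (84.1% and 86.6%, beside 50.2% and 50.9% of all genes), with medians of 0.17 and 0.22. The sex difference had an unadjusted edgeR p under 0.05 in 9 of these 82, beside 811 of all 17974 genes. The labelled males include the library whose transcripts go against its label. The genotype difference of the 1 h response had 0 of 17907 genes with an adjusted p under 0.05 in edgeR, with 677 at an unadjusted p under 0.05 and 2 called by DESeq2. Among the 82 early genes, 3 had an unadjusted edgeR p under 0.05 for the genotype difference.

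In mutants, with naive mutants as their own control, 72 of the 82 early genes were higher at 1 h (87.8%, beside 47.3% of all genes). Their median log2 fold change was 0.28, beside 0.19 in WT and 0.24 in WT without the library labelled WT 1 h male 1. The difference between these medians was not tested. The log2 fold change of Fosb was 1.37 in mutants, of Fos 1.31, of Egr1 0.87 and of Arc 0.88. Npas4 gave 0.50 in mutants and a larger value in WT, and the difference, mutant minus WT, of −0.61 (SE 0.29) had an adjusted p of 0.999 in edgeR. At 3 h, measured against the same naive WT libraries, 55 of the 82 early genes were above 0 (67.1%, beside 48.4% of all genes), with a median of 0.06. Fosb was then at 9.47 to 18.2 CPM (log2 fold change 0.56), Npas4 at 5.56 to 17.9 CPM (0.27), Fos at −0.07 and Arc at −0.08. Egr3 had a log2 fold change of 0.32 at 3 h and 0.34 at 1 h, and Sbk1 was at 0.27. The 1 h and 3 h comparisons share their 6 naive libraries, and the difference between the times was not tested.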

How the data were processed

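Libraries of polyadenylated RNA from dorsal hippocampus were sequenced as paired reads of 150 bases. Per the labels, the authors aligned reads with STAR 2.7.8a to mm10 and counted them per gene with featureCounts 2.0.1. What they deposited for the 36 libraries used here is a table of raw counts by gene, without normalisation. Values from 1 to 20 were even in 71.4% of cases, and whether both reads of a pair were counted is not given in the sources used here. The annotation, strand setting and treatment of reads shared by genes are not given in the sources used here. Each file holds 27179 gene identifiers, of which 25275 were named from RefSeq (GRCm38.p6), and the 1904 unnamed ones hold 1.28% of counts.

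The 12 WT libraries at 0 h and 1 h were fitted with edgeR 4.0.16 in R 4.3.3 (quasi-likelihood F-test, robust dispersion, TMM factors of 0.976 to 1.02, filterByExpr with a minimum count of 10, sex as labelled as a covariate). P values were adjusted by the Benjamini-Hochberg method over all 17319 genes tested. Genotype and sex differences were tested as interactions in the same way. The common biological coefficient of variation was 18%. Figures and tables used Python 3.11.15. Alternatives were DESeq2 1.42.0 with and without sex, RLE factors, other filters and covariates, more libraries in the fit, a replicate block, and leaving out every library once. DESeq2 with a prior on fold changes in 18 libraries, and DESeq2 without the library labelled WT 1 h male 1, were added after seeing the data.

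On data simulated from these counts, edgeR called 14 of 50 genes changed by a log2 fold of 0.25, 23 of 50 at 0.5, 39 of 50 at 1 and 41 of 49 at 1.5, with 9 of 16952 unchanged genes called. DESeq2 called 19, 29, 43 and 44 of 50 at these folds and 34 of 17113 unchanged genes. The members and lists were chosen with earlier results of these data known. Genes were named if called, if among the 15 higher or 15 lower named genes of smallest p, if in a response list with an unadjusted p under 0.05 or groups that do not overlap, or as Kdm5b and 5 early genes of the study (71 in all).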

Additional observations from a re-analysis of the deposited data

Results flagged for a closer look

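Among the 71 named genes, the 0 h and 1 h groups (142 groups of 6 mice) were searched for a highest or lowest mouse far from the others by Dixon's test at the 95% level, which flags about 1 in 20 groups by chance. It flagged 3 groups. The low transcript BC016579 stood at 0.333 CPM in the library labelled WT 1 h male 1, where the next trained mouse held 0.122 CPM. Its log2 fold change was −1.68 (SE 0.46) with that library and −2.29 (SE 0.38) without it. Errfi1, a feedback inhibitor of EGF receptor signalling, stood at 62.4 CPM in naive female 2, where the next naive mouse held 46.7 CPM. Rasl11b stood at 87.5 CPM in naive male 2, where the next naive mouse held 72.2 CPM.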

How the results depend on the processing

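The count of 0 genes at 1 h against 0 h was also 0 with RLE factors, no filter, at least 10 counts in every library, no sex covariate, sex as the transcripts show it, all 18 WT libraries, and without ribosomal RNA-like and mitochondrial transcripts. DESeq2 called 8 genes with sex and 6 without a covariate, 19 without a covariate but with a prior on fold changes in all 18 WT libraries, and 73 without the library labelled WT 1 h male 1. The fit of all 36 libraries called 1, Fosb. Leaving out 1 library at a time gave 0 to 3 calls, the 3 arising when the library labelled WT 1 h male 1 was dropped, with 1 when naive female 1 was. For the genotype difference DESeq2 called 2 genes and leaving out 1 library gave 0 to 0. For the sex difference DESeq2 called 2 genes and leaving out 1 library gave 0 to 1, the 1 without trained male 3. The cause of these differences between settings was not tested. With a replicate block of sex and number, 0 genes were called at 1 h against 0 h and 0 for the genotype difference. Same-numbered mice of the 2 groups had correlations of deviations from −0.15 to 0.23, with 2 of 6 pairs over 0.1 and 1 of 6 naive mice closest to its own number. These values show no clear pairing by number, but 6 correlations cannot exclude one. No named gene and no median of a response list changed sign under the alternatives run. Among the lists used as checks, 3 medians changed sign without the library labelled WT 1 h male 1: dentate granule cells (0.01 to −0.01), oligodendrocyte precursors (0.01 to −0.03) and sex-linked transcripts (1.39 to −0.11). Low transcripts such as Rag1 and Gpr139 rest on 6 to 39 counts per library, which may be fewer fragments, and 6 mice per group limit what small differences can be seen.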
